A study of Sparassis latifolia with 12 samples.

Results

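A set of 17 mRNAs of the cauliflower mushroom Sparassis latifolia was followed through cold storage of the fruiting body. The set was chosen by the measured values themselves. A member had a mean FPKM from 10 to under 1000 over the 12 libraries, and its lowest library on day 24 was at least 2 times its highest library of days 0, 8 and 16. In addition, its lowest library of days 8 and 16 was less than 2 times its highest library of day 0, a condition that left out no further mRNA. Of 13103 mRNAs, 7988 had a mean in that range and 17 met the whole rule. FPKM is a fragment count divided by the length of the gene and by the depth of the library, so levels of different genes can be set side by side per length.

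The fruiting bodies belonged to strain Minxiu No.1, were packed in oriented polypropylene (OPP) film and were kept at 4 ℃. Group A was taken on day 0, group B on day 8, group C on day 16 and group D on day 24, with 3 replicates each, and film, strain and temperature were common to all 4 groups. The day 0 fruiting bodies are the unstored baseline. The labels do not say whether replicates came from separate packages or fruiting bodies, so p-values cover no more than the spread of these samples, and that spread may be technical. RNA came from fruiting body tissue after removal of ribosomal RNA. In such bulk samples, fewer cells of a type and less RNA per cell cannot be told apart.

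A picked mushroom goes on respiring and ageing, drawing on its own sugars, proteins and membrane lipids while the tissue browns and softens. Cold slows this postharvest senescence, and a film around the package limits water loss and changes the gas the tissue breathes. Much of the response is made through gene expression, and the rule here looked for transcripts at their highest on the last day sampled. Whether they mark a stage of senescence was not tested. None of the identifiers of these mRNAs matched the reference gene table at hand, so no product name or role is given for any of the 17, and the tissue label could not be checked against marker genes.

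The libraries held 37293365 to 63319861 reads over mRNAs, as recovered from the FPKM. On day 24 the 3 libraries listed 11480, 11133 and 12789 mRNAs above 0, against 12636 to 12886 in the libraries of day 0 and 10956 to 11061 in those of days 8 and 16. Replicate 3 of group B stood apart from the other 2 replicates of its group for the mRNAs of the set. Calls and medians of the set that rest on day 8 are given with and without it, except those relative to length classes. Values for short and long mRNAs as a whole are given only with it. This library also stood apart in a principal component analysis, which places libraries by their main differences in expression. On component 2 it lay at −14.43, against 32.27 and 42.09 for replicates 1 and 2 of group B. Group C lay from −6.56 to 0.52 there, and group D from −57.34 to −49.08. On component 1, replicate 3 of group B lay at 46.33, among the values of groups B and C (44.8 to 53.74). According to the sequencing table of the study, clean reads were shorter on average in every library of groups A and D than in any library of groups B and C. By the same table, a smaller share of reads mapped uniquely in every library of groups B and D than in any of groups A and C.

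The 17 mRNAs took a larger part of the reads on day 24 than on any earlier day, which their choice by the rule largely fixed. On day 0 they held 0.0599, 0.0778 and 0.0562% of the reads over mRNAs, on day 8 0.0269, 0.0195 and 0.0597%, on day 16 0.0563, 0.0547 and 0.0510%, and on day 24 0.536, 0.374 and 0.463%. The lowest read count behind any of their values was 4, for EVM0006274 in a day 0 library, and the lowest on day 24 was 319.

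**Figure D1:**
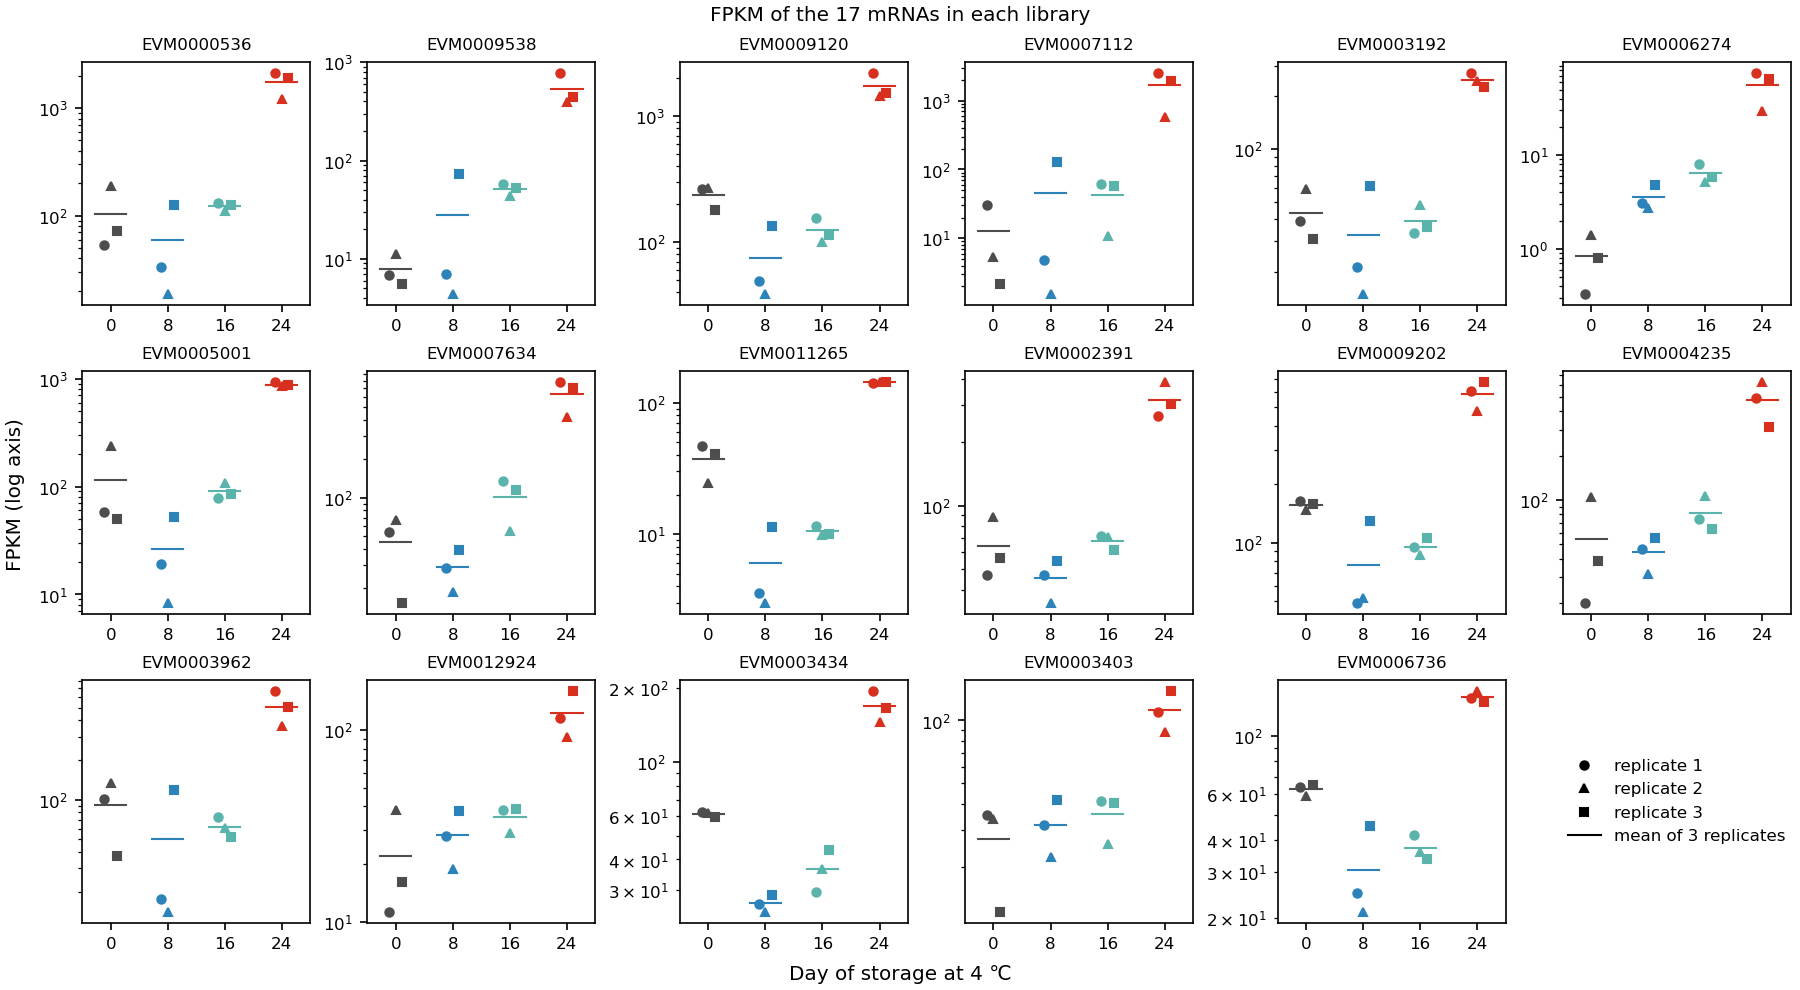
FPKM (log axis) against the day of storage for each of the 17 mRNAs, with 1 symbol per library and a line at the mean of the 3 replicates of a day; panels run by the ratio of the lowest day 24 library over the highest earlier library, from 6.42 to 2.097. In every panel the 3 day 24 libraries lie above the 9 earlier ones, which is what the rule asks, and replicate 3 of day 8 lies above the other 2 replicates of that day.

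The ratio of the lowest day 24 library over the highest earlier library ran from 2.097 to 6.42, with a median of 3.02. It was 5 or more for 3 mRNAs, 3 to under 5 for 6 and 2 to under 3 for 8. EVM0000536 had the highest ratio, 6.42. Its FPKM was 53.2, 189 and 71.6 on day 0, 33.2, 18.8 and 126 on day 8, 131, 109 and 126 on day 16, and 2107, 1211 and 1906 on day 24. The mean on day 24 was 1741 ± 470 (SD, n = 3), the highest among the 17 mRNAs, against 122 ± 11.5 on day 16. The day 0 and day 8 replicates overlapped widely, while those of day 16 lay close together.

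EVM0009538 had the next highest ratio, 5.50. Its FPKM was 6.77, 11.1 and 5.55 on day 0, 7.003, 4.42 and 72.4 on day 8, 57.4, 43.5 and 52.4 on day 16, and 773, 398 and 446 on day 24. This mRNA was therefore low on day 0 and in 2 of the 3 libraries of day 8, while the other day 8 library was already above all 3 of day 16. EVM0009120, with a ratio of 5.41, followed another course. It had 263, 267 and 179 FPKM on day 0, 49.0, 39.0 and 135 on day 8, 157, 100 and 115 on day 16, and 2193, 1442 and 1533 on day 24. All 6 libraries of days 8 and 16 lay under all 3 of day 0 before the high values of day 24.

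EVM0007112 had the widest spread between replicates. It stood at 30.9, 5.30 and 2.203 FPKM on day 0, 4.77, 1.57 and 131 on day 8, 60.8, 10.6 and 57.1 on day 16, and 2501, 587 and 1942 on day 24. The highest day 24 library was 4.26 times the lowest, the largest such spread among the 17, and the mean of day 24 was 131 times that of day 0 and 39.1 times that of day 16. Replicate 3 of day 8 stood far above the other day 8 replicates and above every library of day 16.

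EVM0003192 was the longest of the 17 mRNAs and varied little on day 24. It had 39.1, 59.2 and 30.6 FPKM on day 0, 21.2, 15.0 and 61.2 on day 8, 33.3, 47.9 and 36.1 on day 16, and 271, 245 and 226 on day 24. Levels of the 3 earlier days overlapped throughout. EVM0006274 was the lowest of the 17, with 0.333, 1.41 and 0.802 FPKM on day 0, 3.06, 2.75 and 4.86 on day 8, 8.14, 5.22 and 5.89 on day 16, and 74.7, 29.4 and 65.1 on day 24. It was the only member whose 6 libraries of days 8 and 16 all lay above its 3 of day 0, and its groups were separate at each step from day 0 to day 24.

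EVM0005001, the shortest of the 17, had 57.5, 239 and 49.8 FPKM on day 0, 19.0, 8.40 and 52.0 on day 8, 78.6, 107 and 85.3 on day 16, and 925, 847 and 869 on day 24. Its day 24 replicates differed little, with a highest to lowest ratio of 1.09, although those of days 0 and 8 were scattered. EVM0007634 had 54.2, 67.2 and 15.4 FPKM on day 0, 28.6, 18.7 and 39.5 on day 8, 134, 54.7 and 114 on day 16, and 780, 422 and 709 on day 24. Its 3 libraries of day 16 all lay above those of day 8.

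EVM0011265 had the tightest day 24 values and the deepest low point before them. It had 47.0, 24.4 and 40.4 FPKM on day 0, 3.58, 3.01 and 11.3 on day 8, 11.5, 9.87 and 10.01 on day 16, and 142, 143 and 143 on day 24. On the log2 scale its mean over days 8 and 16 lay at −2.14 relative to day 0, the most negative of the 17. It was also the only member found among the 254 mRNAs that dipped on days 8 and 16.

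Among the mRNAs with a ratio under 3, EVM0009202, EVM0003434 and EVM0006736 shared the course of EVM0009120, with all 6 libraries of days 8 and 16 under all 3 of day 0. EVM0009202 had 164, 146 and 159 FPKM on day 0, 49.0, 52.0 and 129 on day 8, 94.4, 86.0 and 105 on day 16, and 607, 478 and 672 on day 24. EVM0003434 had 62.5, 61.7 and 59.8 FPKM on day 0, 26.4, 24.5 and 28.7 on day 8, 29.5, 36.6 and 43.8 on day 16, and 194, 145 and 166 on day 24. Its day 0 and day 8 replicates were among the closest of any member. EVM0006736 had 63.7, 58.8 and 64.7 FPKM on day 0, 25.01, 21.2 and 45.3 on day 8, 41.6, 35.9 and 33.7 on day 16, and 140, 149 and 136 on day 24. With a day 24 mean 2.27 times that of day 0, it showed the smallest difference between these days among the 17.

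The other members of this ratio class overlapped between day 0 and days 8 and 16. EVM0002391 had 46.8, 88.6 and 56.7 FPKM on day 0, 46.9, 34.7 and 54.9 on day 8, 71.9, 70.8 and 61.6 on day 16, and 265, 384 and 302 on day 24. EVM0004235 had 20.1, 104 and 38.4 FPKM on day 0, 46.7, 31.5 and 55.1 on day 8, 74.7, 107 and 63.9 on day 16, and 491, 628 and 312 on day 24. For both, replicate 2 was the highest library of day 24, which held for 3 of the 17 mRNAs. EVM0003962 had 101, 133 and 37.2 FPKM on day 0, 17.4, 14.1 and 118 on day 8, 74.0, 61.1 and 52.0 on day 16, and 666, 360 and 504 on day 24. Here the 2 lowest day 8 libraries lay under every library of day 0 and day 16.

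EVM0012924 and EVM0003403 had the smallest differences between day 24 and day 16. EVM0012924 had 11.3, 38.6 and 16.1 FPKM on day 0, 28.1, 18.9 and 38.1 on day 8, 38.3, 29.2 and 38.8 on day 16, and 116, 92.2 and 160 on day 24. EVM0003403 had 35.3, 33.6 and 12.2 FPKM on day 0, 31.5, 22.1 and 41.6 on day 8, 41.3, 25.8 and 40.3 on day 16, and 109, 87.6 and 138 on day 24. Their day 24 means were 3.46 and 3.12 times those of day 16.

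At the edge of the rule, the lowest ratios among the members were 2.097 for EVM0006736, 2.104 for EVM0003403 and 2.33 for EVM0003434. The mRNAs just outside were EVM0012903 at 1.96, EVM0007292 at 1.95 and EVM0010192 at 1.94. EVM0007292, for instance, had 941, 723 and 852 FPKM on day 24, and its highest earlier value, 371, was a day 0 library. The values showed no gap at the threshold.

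Because the rule used them, the contrasts of day 24 with the earlier days are a description. In the fit of limma to all mRNAs, a call needed a log2 fold change of 1 or more in size at an adjusted p below 0.05. All 17 mRNAs were called higher on day 24 than on day 0, where 6.66% of the 10962 mRNAs tested were called higher, with log2 fold changes from 1.15 to 7.34 and a median of 2.60. All 17 were likewise called higher on day 24 than on day 8, against 12.9% of all mRNAs tested, with a median of 3.58 (3.78 and again 17 calls without replicate 3 of group B), and higher than on day 16, against 9.61%, with a median of 2.68. The rule fixed these directions.

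The levels before day 24 took 3 courses. In 5 mRNAs, EVM0009120, EVM0011265, EVM0009202, EVM0003434 and EVM0006736, all libraries of days 8 and 16 were under those of day 0, in EVM0006274 they were all above, and in the other 11 they overlapped. The second condition of the rule bears on the contrasts with day 0, so these too are given without reading. Against day 0, 1 of the 17 was called higher on day 8, EVM0006274, and 6 were called lower, beside 13.6% and 16.8% of all mRNAs. The 6 were the 5 just listed and EVM0005001. Leaving out replicate 2 of group B gave 4 calls in either direction in place of 7, and leaving out replicate 3 gave 10. The median log2 fold change of the 17 was −0.63 with all libraries and −1.21 without replicate 3, and −0.30 without replicate 2. On day 16 against day 0, EVM0006274 and EVM0009538 were called higher and EVM0011265 lower, beside 14.6% and 16.7% of all mRNAs. Leaving out replicate 2 of group A gave 6 calls in place of 3. Shares of all mRNAs called were not computed for the fits against day 0 with a library left out. Those counts of calls are therefore not read as particular to the 17. The highest of the 9 earlier libraries was one of day 0 for 9 mRNAs, of day 16 for 4 and of day 8 for 4, and each time on day 8 it was replicate 3.

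The contrast of day 16 with day 8 was not used by the rule. None of the 17 mRNAs was called in it by limma, and of all 10962 mRNAs 0% were called. At an unadjusted p under 0.05 there were 8 of the 17, against 537 mRNAs in all, or 4.90%. Fitting voom to the recovered reads also called 0 of the 17. Fitted log2 fold changes were above 0 for all 17, from 0.21 to 2.095 with a median of 0.89, where 50.8% of all mRNAs tested were above 0 with a median of 0.01. EVM0005001 had the largest, 2.095 (SE 0.62, 95% interval 0.73 to 3.46, adjusted p = 0.808 by limma), and EVM0003403 the smallest, 0.21 (SE 0.38, interval −0.64 to 1.05, adjusted p = 1 by limma). No mRNA of the whole table passed the adjusted threshold in this contrast. Days 8 and 16 also differed in the share of uniquely mapped reads, which cannot be told apart from storage day here.

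Replicate 3 of group B moved with this contrast. It was above both other day 8 replicates in all 17 mRNAs, against 45.8% of the 7988 mRNAs of the same mean range, and at least 2 times both in 9 of them, against 8.01%. With it, all 3 day 16 libraries lay above all 3 of day 8 in 6 of the 17, against 6.35%. Set beside replicates 1 and 2 of day 8 alone, the day 16 libraries were all higher in 16 of the 17, against 22.5%, the exception being EVM0003403. Without replicate 3, EVM0009538 was called higher on day 16 than on day 8, with a log2 fold change of 3.01 (SE 0.33, adjusted p = 0.00652 by limma), beside 0.237% of all mRNAs, and the median over the 17 was 1.11. Leaving out either other replicate of day 8 moved the values the other way: the median was 0.66 without replicate 1 and 0.44 without replicate 2, and EVM0009538, at 1.84 with all libraries, stood at 1.39 and 1.11 and was not called. At an unadjusted p under 0.05 there were, without replicate 3, 14 of the 17, against 11.2% of all mRNAs.

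**Figure D2:**
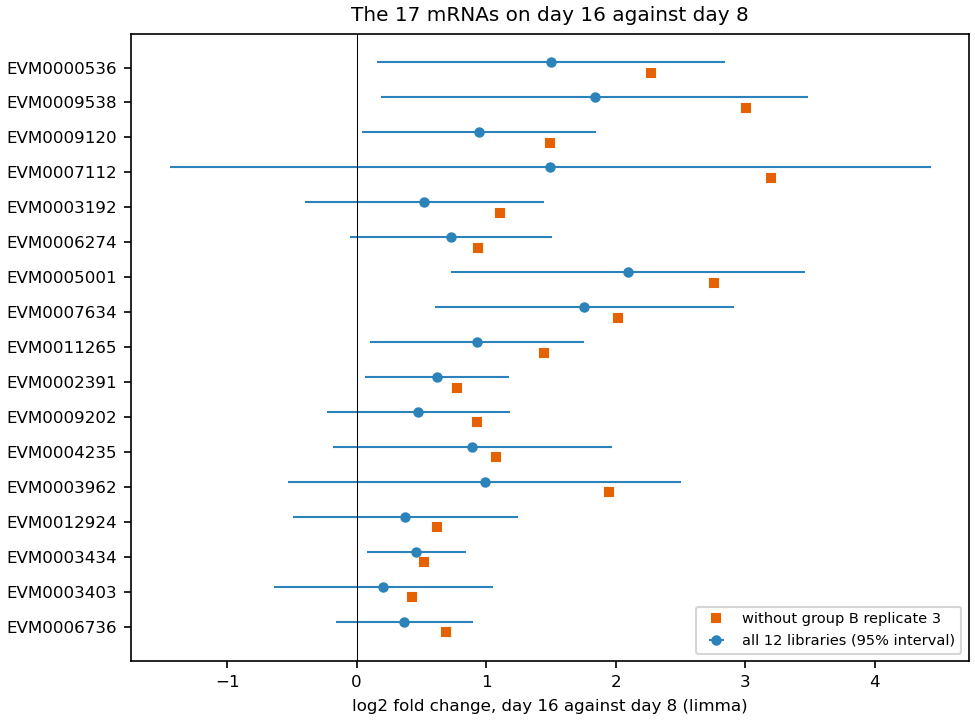
Log2 fold change of day 16 against day 8 by limma for the 17 mRNAs, with all 12 libraries (circles, with 95% intervals) and without replicate 3 of group B (squares, no interval drawn). All circles lie above 0, from 0.21 to 2.095, and every square lies to the right of its circle, with EVM0009538 at 3.01.

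Each day 24 library was also read against mRNAs chosen without it. With replicate 1 of group D held out, the rule on the other 11 libraries took 20 mRNAs, and replicate 1 placed all 20 above the 9 earlier libraries and 18 of them, or 90.0%, at 2 times or more. One of the 18, EVM0004271, is not a member because its mean over all 12 libraries passed 1000. With replicate 2 held out, 37 mRNAs were taken, of which 31 lay above and 17, or 45.9%, at 2 times or more. With replicate 3 held out, 31 were taken, all lay above, and 17, or 54.8%, reached 2 times. The 17 members reached 2 times in each case, as the rule fixes, and with replicates 2 and 3 no other mRNA did. Of all mRNAs in the mean range, replicates 1, 2 and 3 placed 1.17, 0.638 and 0.587% at 2 times or more. Those shares are a background and no test, since the choice had already asked for low earlier libraries. The earlier libraries on the lower side of each ratio were the same ones used in the choice, and the 3 day 24 libraries share the day, so the shares describe how far the day 24 replicates differed and are no independent support for the pattern.

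**Figure D3:**
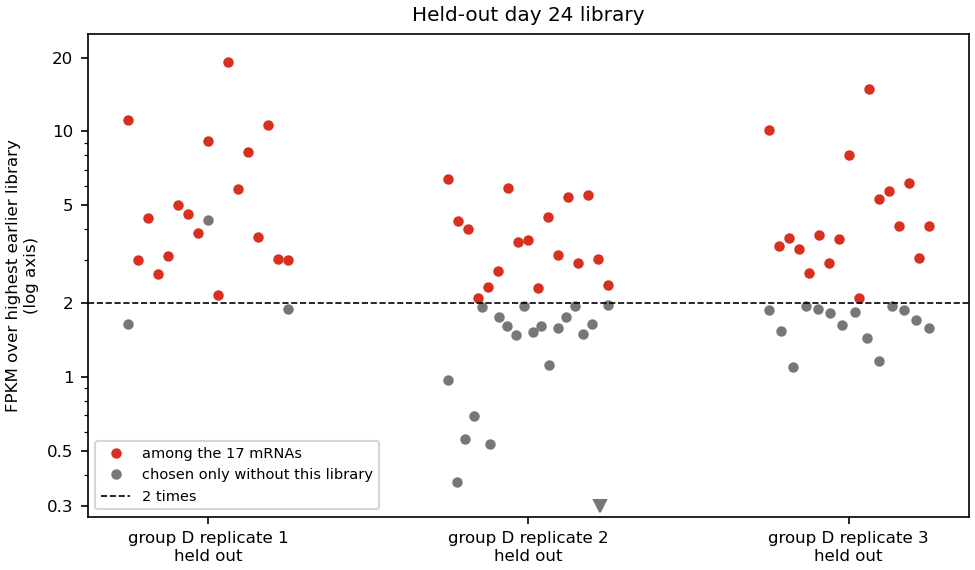
FPKM of the held-out day 24 library over the highest of the 9 earlier libraries (log axis), for the 20, 37 and 31 mRNAs chosen without replicates 1, 2 and 3; red points are among the 17 mRNAs and grey points were taken only while that library was held out, the triangle standing for 1 mRNA listed at 0. All 17 lie above 2 times, as their choice fixes, and 6 grey points under 1 occur only for replicate 2.

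Replicate 2 of day 24 was also the lowest of its day in 12 of the 17 mRNAs, against 34.8% of mRNAs in the range, and replicate 1 the highest in 10, against 36.9%. The 3 day 24 replicates spread by more than 2 times in EVM0007112, EVM0006274 and EVM0004235. This was 3 of 17, against 7.37% of mRNAs in the range.

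The 17 mRNAs were short, a property that the rule did not name. It is not independent of the rule, because day 24 differed from days 8 and 16 by mRNA length, as given below. Their lengths, recovered from the FPKM, had a median of 339 bases and ran from 189 for EVM0005001 to 3963 for EVM0003192, and 16 of the 17 were shorter than the median of the range, 1392.5 bases. Under 500 bases there were 12 of the 17, against 9.50% of mRNAs in the range. The longer ones were EVM0009538 with 511 bases, EVM0002391 with 549, EVM0009202 with 585, EVM0006736 with 1226 and EVM0003192. The 13 mRNAs of the mirror rule, whose highest day 24 library was at most the lowest earlier library divided by 2, had a median length of 1227 bases. The median was 1569.5 bases for the 88 mRNAs raised throughout storage and 484.5 for the 254 that dipped on days 8 and 16.

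Short mRNAs as a whole were lower on days 8 and 16 than on days 0 and 24. Of the 759 mRNAs of the range under 500 bases, 49.1% were called higher on day 24 than on day 8 and 41.2% higher than on day 16, against 11.4% and 8.11% of the 7227 longer ones. Between day 24 and day 0 the shares were 10.8% and 7.54%. The median log2 fold change of the short mRNAs was 1.09 for day 24 against day 8, 0.88 against day 16 and 0.10 against day 0. Groups A and D, with little difference by length between them, were also those with the shorter clean reads. Read length and storage day therefore cannot be told apart for the contrasts of days 8 and 16 with day 24 or with day 0. Groups B and D had the lower shares of uniquely mapped reads. That share and storage day cannot be told apart for day 24 against days 0 and 16, nor for day 8 against days 0 and 16.

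Set against the median of mRNAs of the same length class, the median difference of the 17 mRNAs was smaller for days 8 and 16 and much the same for day 0. Relative to its class, the median log2 fold change of the 17 was 2.103 on day 24 against day 16 in place of 2.68, 2.97 against day 8 in place of 3.58, and 2.56 against day 0 in place of 2.60. EVM0003192, in the longest class, went the other way, with 2.99 in place of 2.63 against day 16 and 3.60 in place of 3.15 against day 8. At least 1 was kept by 15 of the 17 against day 16, the exceptions being EVM0012924 at 0.94 and EVM0003403 at 0.83. Against day 8 it was kept by 16, with EVM0003403 at 0.82, and against day 0 by all 17, the lowest being EVM0006736 at 1.10. On day 16 against day 8 all 17 stayed above 0 in this measure, with a median of 0.65. This comparison was chosen after seeing the data. For day 24, the rule had already set each of the 17 at 2 times or more over every earlier library. The counts that kept at least 1 are therefore a description, and whether length accounts for the rise was not tested.

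**Figure D4:**
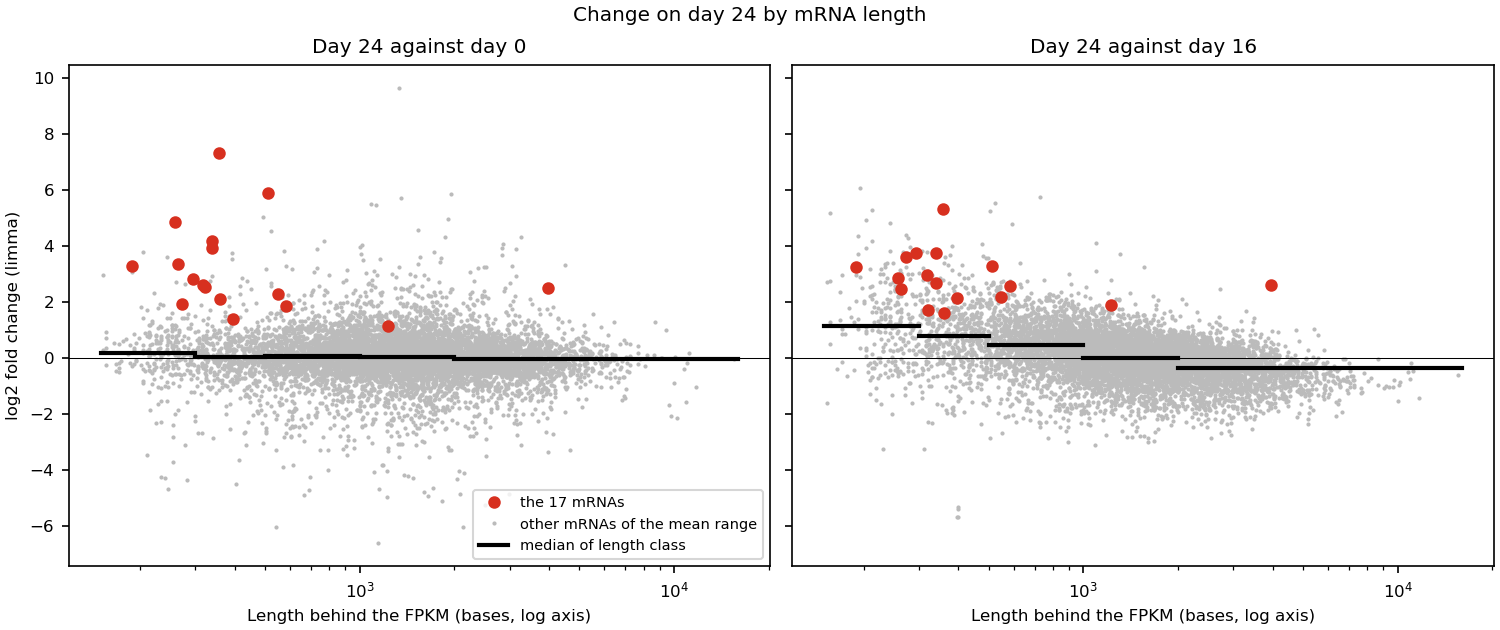
Log2 fold change by limma of day 24 against day 0 (left) and of day 24 against day 16 (right) against mRNA length in bases (log axis), for the 17 mRNAs (red) and the other mRNAs of the mean range (grey), with a black line at the median of each length class. The class medians are nearly level against day 0, from −0.02 to 0.20, and slope against day 16, from 1.16 under 300 bases to −0.37 at 2000 bases or more.

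The same rule applied to the 1003 lncRNAs took 11 of the 795 in the mean range, or 1.38%, against 0.213% of mRNAs. Among mRNAs of the range, 1.58% of those under 500 bases met the rule, against 0.0692% of the longer ones. The paper describes most lncRNAs as shorter than mRNAs. Whether the share of lncRNAs differs from that of mRNAs of like length was not tested. Ratios of the 11 lncRNAs ran from 2.002 to 13.8, and 7 of the 11 were listed at 0 in at least 1 earlier library. XLOC_005268 had the highest, with 9.27, 8.05 and 13.4 FPKM on day 0, 2.14, 5.25 and 4.40 on day 8, 13.7, 0 and 3.57 on day 16, and 246, 289 and 188 on day 24. XLOC_000570, XLOC_002770, XLOC_002803 and XLOC_009131 followed with ratios of 5.11, 4.12, 3.02 and 2.47. The highest day 24 library was replicate 1 in 7 of 11. Shares over all lncRNAs of the mean range were not computed for this count or for the values of 0, so neither is read as particular to the 11.

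None of 13 genes that the study names for ergosterol synthesis, energy and fermentation, and antioxidant defence met the rule, which 0.213% of mRNAs in the mean range met, so the count says nothing particular of these genes. Ergosterol is the main sterol of fungal membranes. These genes were picked in the study on these libraries, and their ratios of the lowest day 24 library over the highest earlier one ran from 0.0484 to 0.662. Of the 13, EVM0009831 and EVM0007108 had a mean FPKM outside the range, so the rule could not take them at any ratio.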

How the data were processed

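Values were FPKM per gene that the authors deposited for 12 libraries of 4 storage days, 1 table for mRNAs and 1 for lncRNAs. The submitters' processing notes name cutadapt 2.7, FastQC 0.11.8, HISAT2 2.1.0 and StringTie 1.3.3b, and the libraries were made with a directional kit. Members and gene lists were chosen with earlier results of these data known. The rule was applied to the deposited FPKM without a pseudocount.

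FPKM was divided by median-of-ratios factors (0.983 to 1.02), and log2(FPKM + 1) was fitted with limma 3.58.1 in R 4.3.3 (trended variance, day as a factor, Benjamini-Hochberg over all mRNAs tested), so that fold changes understate the change of low genes. Of 13103 mRNAs, 10962 reached an FPKM of 1 in 3 or more libraries and were tested, all 17 members among them. All 17 had at least 5.22 FPKM in every library of day 16, so that none passed this filter through day 24 alone. The mean range of the rule is another matter for EVM0006274, with means of 0.849, 3.56 and 6.42 FPKM on days 0, 8 and 16. Its mean of 16.8 over the 12 libraries reached 10 only through day 24, with a mean of 56.4. The FPKM of all 13025 mRNAs above 0 came out as whole reads (tolerance 0.001 reads), after division by 1 number per gene, taken as its length, and 1 per library. Of the lengths, 98.7% lay within 0.01 bases of a whole number. Among the 11441 mRNAs with such a length and at least 100 reads, 83.9% of lengths were multiples of 3. The fit was tested on simulated data.

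All 17 members are described. Genes set beside them were named by rank: the 3 mRNAs just under the ratio of 2 and the 5 lncRNAs of highest ratio. Alternatives were another pseudocount, other filters, no scaling, quantile normalization, fits of 2 groups, a replicate block and each library left out. Voom on the recovered reads and the length classes were added after seeing the data. Sequences were not used here.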

Additional observations from a re-analysis of the deposited data

How the results depend on the processing

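The medians over the members kept their sign, and the counts of calls did not change, under another pseudocount, other filters, no scaling and voom on the recovered reads, chosen after seeing the data. Quantile normalization gave 16 calls in place of 17 for day 24 against day 0, and 4 in place of 3, with a median of 0.24 in place of 0.13, for day 16 against day 0. Fits of 2 groups gave 5 calls in place of 7 for day 8 against day 0. Same-numbered libraries did not deviate together (4 of 18 pairs had r over 0.1, range −0.37 to 0.35), and with replicate number as a block the calls stayed at 17, 17 and 17 for day 24 against days 0, 8 and 16, 0 for day 16 against day 8, 7 for day 8 against day 0 and 3 for day 16 against day 0. With each library left out, calls ran from 16 to 17 for day 24 against day 0, 0 to 1 for day 16 against day 8, 4 to 10 for day 8 against day 0 and 3 to 6 for day 16 against day 0. For such fits, the share of all mRNAs called was computed only for day 16 against day 8 without replicate 3 of group B. The medians ran from 0.44 (without replicate 2 of group B) to 1.11 (without replicate 3) for day 16 against day 8, −1.21 (without replicate 3 of group B) to −0.30 (without replicate 2) for day 8 against day 0 and −0.062 to 0.71 (without replicate 2 of group A) for day 16 against day 0. EVM0009538, at 1.84 on day 16 against day 8, ran from 1.11 without replicate 2 of group B to 3.01 without replicate 3. Relative to the length class, the medians were 2.97 for day 24 against day 8, 2.103 against day 16 and 0.95 for day 16 against day 0. The rule took 89 mRNAs at 1.5 times, 16 of the 17 among them, and 9 at 3 times. With each library left out it took 16 to 37, with 28 without replicate 1 of group A, 34 without replicate 3 of group B, and 37 and 31 without replicates 2 and 3 of group D. Chosen at 1.5 times, 50, 25.4 and 26.0% of mRNAs reached 2 times in the held-out replicates 1, 2 and 3 of group D. The cause of these changes was not tested. The smallest values, 4 reads in a day 0 library of EVM0006274, limit how well its fold over day 0 is known.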

Other observations

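Another 5 mRNAs met both conditions of the rule with a mean FPKM outside the range. EVM0011102 had 1336, 2506 and 1465 FPKM on day 0, 584, 415 and 1937 on day 8, 1708, 2297 and 1569 on day 16, and 20841, 6986 and 16247 on day 24. EVM0008019 had 8190, 8655 and 14430 FPKM on day 24, with a highest earlier library of 2850, and EVM0004271 had 5414, 2583 and 3502 FPKM, with a highest earlier library of 1238. In EVM0008019 and EVM0004271 that earlier library was replicate 3 of day 8, as in 4 of the 17 mRNAs. EVM0004625 and EVM0003077 lay under the range, with 16.4, 11.3 and 13.5 FPKM and 9.30, 8.73 and 7.41 FPKM on day 24. Without the limits on the mean, 22 mRNAs met the rule.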
